A study of Mus musculus with 18 samples.

Results

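Kidneys of 12 defeated mice, 6 given phosphate-buffered saline and 6 given fluoxetine, were compared as 1 set with kidneys of 6 undefeated mice, and the genes that moved the same way in both defeated groups were followed. All 18 libraries of the series entered the comparison. The mice were male wild-type C57BL/6 animals, labelled as 6 weeks old. Mice of the Ctrl group were handled daily and not defeated. The defeated mice were exposed daily to a CD-1 aggressor for 10 min over 2 weeks, the procedure called chronic social defeat stress (CSDS), and were injected into the peritoneum once a day with saline (PBS) or with fluoxetine (FLX), a selective serotonin reuptake inhibitor, at 10 mg per kg. The sources used here do not say that Ctrl mice were injected, and no undefeated group received fluoxetine, so defeat and injection cannot be told apart. Poly(A) RNA of whole kidney was sequenced, and the sources used here give no hour of collection. The deposited counts summed to 72149987 to 79061296 in 14 of the mice and to 48928823 to 52073640 in FLX replicates 3 to 6. With FLX replicates 1 and 2 alone as the FLX group, 93 genes were shared in the sense defined below, and 87 of them were among those of the main analysis.

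Stress raises glucocorticoid hormones, which enter cells and act through the glucocorticoid receptor, a transcription factor that binds DNA and switches on genes such as Tsc22d3, Sgk1 and Per1. The kidney also runs its own circadian clock, in which Arntl and its partner drive the Per and Cry genes, whose proteins in turn hold Arntl back. Dbp and Nfil3 encode factors that compete for the same DNA element, the D-box, and carry the rhythm to output genes. Glucocorticoids are among the signals that set this clock.

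A gene was called when the mean of the PBS and FLX groups differed from the Ctrl group at an adjusted p under 0.05 by edgeR's quasi-likelihood test. It was called shared when, in addition, PBS versus Ctrl and FLX versus Ctrl had the same sign, each at an unadjusted p under 0.05. Of 19946 genes tested, 817 were called (4.1%), 419 higher and 398 lower in defeated mice. The shared genes numbered 713 (3.57%), with 372 higher (1.87%) and 341 lower (1.71%). Of the other 104 called genes, 76 missed the limit in FLX mice, 27 missed it in PBS mice, and 1, Tnfrsf21, which was singled out after its values were seen, had opposite signs with log2 fold changes of 0.85 in PBS and -0.01 in FLX mice. Both single comparisons use the same 6 Ctrl mice, so the shared direction is part of the rule and not a result. The shared changes were mostly small, with a median fold of 1.39 for the rises and 1.49 for the falls. Only 64 of the rises and 51 of the falls exceeded a log2 fold change of 1. Levels below are in FPKM, fragments per kilobase of transcript scaled to library size, and fold changes come from the counts.

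The number of shared genes moved with single mice. Without Ctrl replicate 3 the shared genes numbered 2228, and 679 of the 713 were among them. Without Ctrl replicate 2 they numbered 227, and 221 of the 713 were among them. Without PBS replicate 6, whose kidney had 22.05 FPKM of the neutrophil gene S100a8 against at most 7.65 in the other PBS mice and 1.002 in Ctrl mice, there were 951, of which 683 were among the 713. A stricter reading, in which the larger of the 2 p values was itself adjusted over all genes, left 4 genes, Nfil3, Cdr2, Tsc22d3 and Glt1d1. An adjusted p under 0.05 in each comparison separately left 123 genes. None of the 74 shared genes named below or in the closing section changed direction in any of 28 other settings, and 30 of them stayed shared in all 28. The settings refit the same mice, and the genes were chosen for a shared direction, so the kept direction is no further support.

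**Figure D1:**
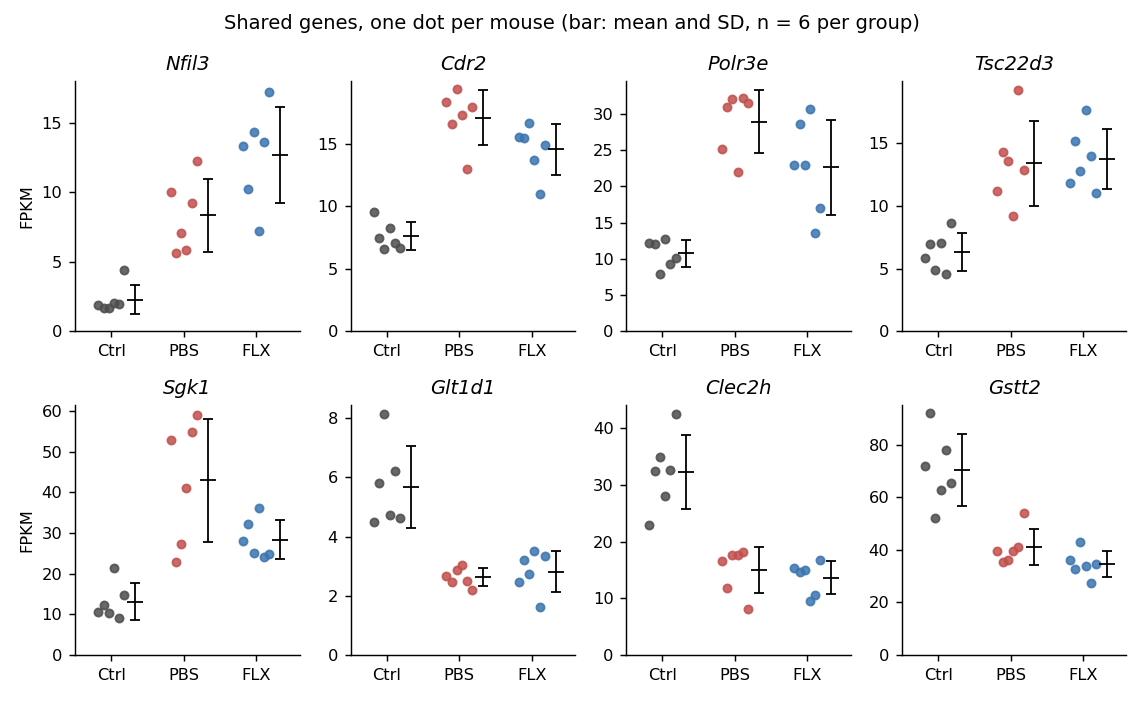
FPKM (vertical axis) of 8 shared genes in the 6 mice of each group, 1 dot per mouse, with the mean and SD beside the dots. In Nfil3, Cdr2, Polr3e, Tsc22d3 and Sgk1 all 12 defeated mice lie above every Ctrl mouse, in Glt1d1 and Clec2h all 12 lie below, and in Gstt2 1 PBS mouse at 54.2 FPKM overlaps the lowest Ctrl mouse at 52.1.

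In 129 of the 19946 genes (0.647%) the 12 defeated mice did not overlap the 6 Ctrl mice, and 109 of the 713 shared genes were among these, 76 higher and 33 lower. Nfil3 (ENSMUSG00000056749, chromosome 13, 52967209 to 52981073, GRCm38), which encodes a repressor that opposes Dbp at the D-box, had one of the smallest adjusted p values. Its lowest, median and highest FPKM were 1.65, 1.9 and 4.43 in Ctrl, 5.63, 8.15 and 12.2 in PBS and 7.25, 13.5 and 17.2 in FLX mice. Every defeated mouse lay above every Ctrl mouse. The averaged log2 fold change, with its standard error (SE), was 2.13 ± 0.25 (SE, adjusted p = 0.0005), a 4.38-fold rise. The exact two-sided permutation test over the 18 mice gave p = 5.39e-05, the smallest it can give. As the gene was picked for its small adjusted p on the same mice, that unadjusted p is no further support. Over the other settings tried its log2 fold change lay between 1.79 and 2.43.

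Cdr2 (ENSMUSG00000030878, chromosome 7, 120957036 to 120982312) encodes a cytoplasmic protein known as an antigen in paraneoplastic cerebellar degeneration. It stood at 6.59, 7.26 and 9.52 FPKM (lowest, median, highest) in Ctrl, 13, 17.6 and 19.4 in PBS and 10.9, 15.2 and 16.6 in FLX mice. It rose 2.01-fold, with a log2 fold change of 1.01 ± 0.11 (SE, adjusted p = 0.0005), and the groups did not overlap. Polr3e (ENSMUSG00000030880, chromosome 7, 120917744 to 120946249), a subunit of RNA polymerase III, lies next to Cdr2 on the opposite strand, with 10786 bases between their facing 3′ ends. It stood at 7.95, 11.1 and 12.7 FPKM in Ctrl, 22, 31.2 and 32.1 in PBS and 13.5, 23 and 30.6 in FLX mice, again without overlap. Its log2 fold change was 1.20 ± 0.16 (SE, adjusted p = 0.0008). The sources used here do not say whether the counting used strand.

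Glucocorticoid-induced genes held the largest number of shared members of any list. Of 16 genes tested, 7 were shared and higher, against 1.87% of all genes, and none was shared and lower. The median log2 fold change of the 16 genes was 1.03, against -0.01 for all genes tested. It was 1.65 in PBS and 0.48 in FLX mice. The shared members were Tsc22d3, Sgk1, Zbtb16, Per1, Cdkn1a, Ddit4 and Sult1a1, of which Per1, Sgk1 and Cdkn1a also stand in the clock, aldosterone and injury lists. Tsc22d3 (chromosome X, 140539528 to 140600659) encodes GILZ, a leucine zipper protein that mediates part of the anti-inflammatory action of glucocorticoids. It stood at 4.59, 6.42 and 8.61 FPKM in Ctrl, 9.24, 13.2 and 19.2 in PBS and 11.1, 13.4 and 17.7 in FLX mice. The ranges of both defeated groups overlapped each other and not that of Ctrl mice, and FLX versus PBS gave a log2 fold change of -0.04 with a 95% interval of -0.38 to 0.30. Against Ctrl mice the rise was 1.05 on the log2 scale (SE 0.15, adjusted p = 0.0012).

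Sgk1 (chromosome 10, 21882184 to 21999893) encodes a kinase that keeps the epithelial sodium channel at the cell surface. It stood at 9.17, 11.4 and 21.4 FPKM in Ctrl, 22.9, 46.9 and 59 in PBS and 24, 26.6 and 36.2 in FLX mice, so that the lowest defeated mouse was just above the highest Ctrl mouse. Its log2 fold change was 1.37 ± 0.21 (SE, adjusted p = 0.0019). Zbtb16, a zinc finger transcription factor, went from 0.0858, 0.12 and 0.238 FPKM in Ctrl to 0.512, 0.956 and 3.51 in PBS and 0.477, 0.593 and 0.956 in FLX mice, a log2 fold change of 2.81 ± 0.41 (SE, adjusted p = 0.0015) without overlap. Cdkn1a, which encodes the cell cycle inhibitor p21, went from 1.39, 2 and 3.36 FPKM in Ctrl to 5.53, 11.8 and 34.2 in PBS and 4.17, 5.04 and 8.81 in FLX mice. All defeated mice exceeded all Ctrl mice for Cdkn1a, whose log2 fold change was 1.99 ± 0.31 (SE, adjusted p = 0.0024). Ddit4, an inhibitor of the growth kinase mTORC1, rose by 1.66 on the log2 scale (adjusted p = 0.0037), with medians of 9.66 FPKM in Ctrl, 46 in PBS and 21.1 in FLX mice. Sult1a1, a sulfotransferase, rose by 0.75 (adjusted p = 0.046), and that call was lost in 16 of 28 other settings. Fkbp5, a chaperone that dampens the receptor, was called but not shared. Its median was 4.51 FPKM in Ctrl, 11.4 in PBS and 5.92 in FLX mice, and FLX versus Ctrl gave 0.45 on the log2 scale (unadjusted p = 0.097). The receptor gene Nr3c1 itself gave a log2 fold change of -0.17 (adjusted p = 0.33).

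Of 19 clock genes tested, 4 were shared and higher (Arntl, Cry1, Nfil3, Per1) and 1 was shared and lower (Dbp), against 1.87% and 1.71% of all genes. The median over the 19 genes was 0.19. Arntl, which encodes the activator BMAL1, stood at 0.652, 0.881 and 1.18 FPKM in Ctrl, 0.62, 1.64 and 1.94 in PBS and 2.42, 3.38 and 3.94 in FLX mice. FLX mice lay above all others, and PBS mice overlapped Ctrl mice. The averaged log2 fold change was 1.19 ± 0.19 (SE, adjusted p = 0.0034), and FLX versus PBS gave 1.07 (95% interval 0.62 to 1.52, adjusted p = 0.028). Cry1, a repressor of BMAL1, stood at 0.605, 0.778 and 1.26 FPKM in Ctrl, 1.2, 1.68 and 2.06 in PBS and 2.01, 3.34 and 5.49 in FLX mice. Only the lowest PBS mouse was within the Ctrl range. Its averaged log2 fold change was 1.44 ± 0.20 (SE, adjusted p = 0.0014), with 1.01 more in FLX than in PBS mice (adjusted p = 0.043).

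Per1, a clock repressor that glucocorticoids also induce, showed the opposite order of the defeated groups. It stood at 1.82, 3.04 and 4.12 FPKM in Ctrl, 7.56, 14.1 and 16.4 in PBS and 3.83, 5.07 and 7.38 in FLX mice. All PBS mice and 4 of 6 FLX mice exceeded every Ctrl mouse. The averaged log2 fold change was 1.44 ± 0.21 (SE, adjusted p = 0.0014), and FLX versus PBS gave -1.33 (adjusted p = 0.012). Dbp stood at 9.39, 15.1 and 22.1 FPKM in Ctrl, 3.23, 5.88 and 23 in PBS and 0.694, 1.06 and 1.69 in FLX mice. All FLX mice lay below every other mouse, while 1 PBS mouse had the highest value of all. Its averaged log2 fold change was -2.40 ± 0.34 (SE, adjusted p = 0.0012), with -0.91 in PBS and -3.88 in FLX mice, and the shared call was lost in 9 of 28 other settings, among them those without PBS replicate 6 or Ctrl replicate 3. Noct, a rhythmic gene known for its nocturnal peak and no member of the clock list, rose by 1.80 ± 0.23 (SE, adjusted p = 0.00075), from a median of 0.668 FPKM in Ctrl to 3.75 in PBS and 1.63 in FLX mice without overlap. Nr1d1, Nr1d2 and Tef were called lower but not shared: for Nr1d1, which encodes the repressor REV-ERBα, the medians were 13.8 FPKM in Ctrl, 10.5 in PBS and 3.13 in FLX mice.

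**Figure D2:**
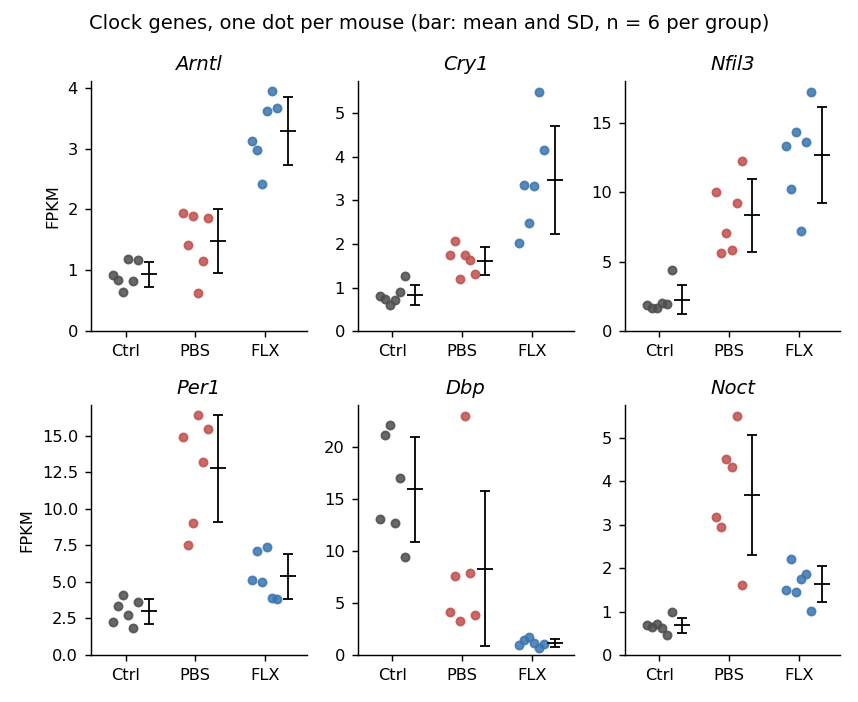
FPKM (vertical axis) of 5 clock genes and Noct in the 6 mice of each group, 1 dot per mouse, with the mean and SD. Arntl and Cry1 are highest in FLX mice (medians 3.38 and 3.34), Per1 and Noct are highest in PBS mice (medians 14.1 and 3.75), and Dbp is at 1.69 FPKM or less in every FLX mouse.

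The stretches before the starts of Per1, Cry1, Noct and Sgk1 are shown because these shared genes hold the letters that clock factors or the glucocorticoid receptor are known to bind. They were chosen for their matches: the listed starts of Nfil3 and Tsc22d3 and the second start of Per1 had no match, and of the 6 starts of Sgk1 the second also held a glucocorticoid response element, 127 bases before it, while the remaining 4 had none. They were read from RefSeq's promoter table (GRCm38.p6), 250 bases each up to the base before the start, on the gene's strand. Capitals mark the E-box CACGTG, the D-box TTATGNAA and the core of the glucocorticoid response element, ACANNNTGT, searched on both strands.
Per1, chr11:69098699-69098948, plus strand, with an E-box that begins 166 bases and a D-box that begins 24 bases before the start: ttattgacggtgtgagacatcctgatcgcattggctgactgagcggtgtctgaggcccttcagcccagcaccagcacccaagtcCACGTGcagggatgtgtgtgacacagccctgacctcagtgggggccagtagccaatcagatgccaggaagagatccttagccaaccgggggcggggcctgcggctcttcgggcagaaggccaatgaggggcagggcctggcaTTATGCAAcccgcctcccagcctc
Cry1, chr10:85185055-85185304, minus strand, with an E-box 60 bases before the start: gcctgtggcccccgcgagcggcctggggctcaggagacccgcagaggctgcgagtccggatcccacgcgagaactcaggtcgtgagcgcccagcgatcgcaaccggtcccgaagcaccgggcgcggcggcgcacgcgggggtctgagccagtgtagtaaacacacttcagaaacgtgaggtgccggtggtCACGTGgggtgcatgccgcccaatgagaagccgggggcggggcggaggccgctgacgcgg
Noct, chr3:51224197-51224446, plus strand, with a D-box on the other strand 94 bases before the start: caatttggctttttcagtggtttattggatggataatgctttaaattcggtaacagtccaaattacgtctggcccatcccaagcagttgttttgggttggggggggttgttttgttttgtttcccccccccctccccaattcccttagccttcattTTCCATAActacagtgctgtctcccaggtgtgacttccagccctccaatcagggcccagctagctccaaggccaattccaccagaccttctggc
Sgk1, chr10:21993640-21993889, plus strand, before the fifth of 6 listed starts, with an E-box 246 bases and a glucocorticoid response element 186 bases before the start: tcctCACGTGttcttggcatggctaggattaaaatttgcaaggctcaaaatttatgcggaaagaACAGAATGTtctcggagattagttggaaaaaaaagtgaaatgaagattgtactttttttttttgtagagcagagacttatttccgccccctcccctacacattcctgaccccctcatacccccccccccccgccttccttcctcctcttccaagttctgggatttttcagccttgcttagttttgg

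Promoters were found for 13158 of the genes tested, 288 of the shared rises and 238 of the shared falls. The E-box stood in 9.14% of all, in 12.2% of the rises and in 9.66% of the falls. The D-box stood in 2.56%, 2.78% and 2.1%, and the glucocorticoid response element in 5.18%, 3.82% and 3.78%. The heat shock element stood in 0.426% of all and in 1 of the 288 rises. The cAMP response element TGACGTCA stood in 2.73%, 4.17% and 3.78%. No test was run on these shares, and a match describes the letters in the window, not a bound site.

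Of 19 genes tested in the heat shock and chaperone list, 5 were shared and higher, against 1.87% of all genes: Hspa1a, Hspa1b, Hspb1, Dnajb1 and Bag3. The median over the list was 0.46. Bag3, a co-chaperone of HSP70, stood at 5.52, 6.13 and 8.5 FPKM in Ctrl, 7.64, 10.8 and 12 in PBS and 9.53, 11.2 and 13.1 in FLX mice. All FLX mice and 4 of 6 PBS mice were above every Ctrl mouse, and the log2 fold change was 0.69 ± 0.11 (SE, adjusted p = 0.0036). Dnajb1, an HSP40 partner of HSP70, did not overlap, with 5.54 to 7.27 FPKM in Ctrl and 8.06 to 36.7 in defeated mice (log2 fold change 1.14, adjusted p = 0.031). Hspa1a and Hspa1b encode nearly identical inducible HSP70 proteins, so reads may be divided between them arbitrarily. Their log2 fold changes were 1.87 (adjusted p = 0.014) and 1.78 (adjusted p = 0.026). The small heat shock gene Hspb1 rose by 1.13 (adjusted p = 0.048), a call lost in 18 of 28 other settings. The list also holds Cirbp and Rbm3, which encode cold-induced RNA-binding proteins. Without PBS replicate 6, 6 members of the list were shared and higher and 1 was shared and lower. With that mouse left out, 507 genes in all were shared and higher and 444 were shared and lower.

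Of 24 collagen and matrix genes, 5 were shared and higher, against 1.87% of all genes, and the median over the list was 0.59. Acta2, smooth muscle actin, stood at 9.48, 12.6 and 18.6 FPKM in Ctrl, 17.4, 26.9 and 43.9 in PBS and 15.2, 26.8 and 44.7 in FLX mice, with 10 of 12 defeated mice above every Ctrl mouse. Its log2 fold change was 1.10 ± 0.23 (SE, adjusted p = 0.013), and FLX versus PBS gave 0.03 (95% interval -0.50 to 0.55). Col6a2, a chain of collagen VI, rose without overlap from 0.785 to 1.41 FPKM in Ctrl to 1.49 to 4.08 in defeated mice (log2 fold change 1.11, adjusted p = 0.0049). The other shared members were Col6a1 (0.76, adjusted p = 0.012), fibronectin Fn1 (0.75, adjusted p = 0.029) and the actin-binding Tagln (0.85, adjusted p = 0.043). In whole kidney, more cells of a type and more RNA per cell cannot be told apart, which holds for every gene here. The 6 podocyte markers had a median of 0.34 and the 6 endothelial markers 0.30, with none called, and their summed FPKM lay at 41 to 57.4 and 22 to 33.1 in Ctrl against 48 to 92.9 and 19.8 to 51.2 in defeated mice. Their part in the result was not tested.

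Some genes of the distal nephron that move sodium, calcium and magnesium were also among the rises. Of 18 genes of the renin-angiotensin-aldosterone list, 3 were shared and higher, against 1.87% of all genes: Sgk1, Scnn1a and Scnn1g. The latter pair encodes the α and γ subunits of the epithelial sodium channel. Scnn1g stood at 7.51, 9.24 and 10.6 FPKM in Ctrl, 10.9, 11.6 and 18.8 in PBS and 11.3, 12.7 and 14 in FLX mice. The groups did not overlap, although the log2 fold change was only 0.42 ± 0.11 (SE, adjusted p = 0.031). Scnn1a had 0.41 (adjusted p = 0.048), lost in 16 of 28 other settings. The median of the renin-angiotensin-aldosterone list was 0.24. Scnn1g was also the 1 shared gene of 8 collecting duct markers (12.5%, against 3.57% of all genes). The median of those markers was 0.03, with 4 of 8 above 0. Of 18 phosphate, vitamin D and calcium genes, 2 were shared and higher, against 1.87% of all genes. The list had a median of 0.06 (0.10 in PBS and -0.05 in FLX mice), with 10 of the 18 above 0. Calb1, the calcium-binding calbindin of the distal tubule, stood at 53.7, 64.3 and 77 FPKM in Ctrl, 77.8, 130 and 160 in PBS and 63, 96.8 and 122 in FLX mice (log2 fold change 0.70, adjusted p = 0.012). Trpv5, the calcium channel of the same cells, rose by 0.67 (adjusted p = 0.0071). Trpm6, a magnesium channel there, rose by 0.74 (adjusted p = 0.0044). With Calb1, 2 of 6 markers of the loop of Henle and distal tubule were thus shared, and the list had a median of 0.15.

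Slc7a12, an amino acid transporter gene known to be higher in female than in male mouse kidney, stood at 1.46, 1.77 and 2.81 FPKM in Ctrl, 0.708, 21.9 and 28.7 in PBS and 5.86, 7.46 and 14.9 in FLX mice. Apart from PBS replicate 6, which held the lowest value of all, every defeated mouse was above every Ctrl mouse. The log2 fold change was 2.68 ± 0.48 (SE, adjusted p = 0.0059). None of the 16 androgen-dependent proximal tubule genes tested was shared, by edgeR or by DESeq2, although 10 had an unadjusted p under 0.05. Of all genes tested 3.57% were shared by edgeR, and no share of all genes is given here for the unadjusted p. Without PBS replicate 6, 2 of the 16, Kap (-0.54, adjusted p = 0.0077) and Slco1a1 (-1.72, adjusted p = 0.0018), were shared and lower by edgeR. In that setting 444 genes in all were shared and lower. In the main analysis 5 of the 16 genes were called lower, against 2.0% of all genes tested: Slco1a1, Cyp4a12a, Acsm3, Slc22a12 and Gm6300. Their FLX versus Ctrl log2 fold changes lay between -0.71 and -0.18, against -3.77 to -0.67 in PBS mice. FLX versus PBS had an adjusted p between 0.016 and 0.043 for these 5 genes by edgeR, and 0.557% of all genes were under 0.05. The 5 were called but missed the limit in FLX mice. They were thus picked on the same PBS and FLX values, and nothing is read from these p values.

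Mchr1, the receptor of melanin-concentrating hormone, was the 1 shared gene among 18 receptors of stress hormones and monoamines. It stood at 0.072, 0.223 and 0.377 FPKM in Ctrl, 0.678, 1.91 and 3.88 in PBS and 0.327, 0.71 and 1.17 in FLX mice, and 11 of 12 defeated mice exceeded every Ctrl mouse. The log2 fold change was 2.48 ± 0.41 (SE, adjusted p = 0.0038). Kynu, a kynureninase of tryptophan breakdown, was the 1 shared gene of 17 in monoamine metabolism (1.04, adjusted p = 0.014). The receptor and metabolism lists thus held 5.56% and 5.88% shared genes, near the 3.57% of all genes tested. Of 22 immediate early genes, Nr4a3 and Klf4 were shared and higher, against 1.87% of all genes. Nr4a3, a nuclear receptor gene, had 0.0352, 0.0464 and 0.138 FPKM in Ctrl, 0.129, 0.912 and 3.82 in PBS and 0.0151, 0.233 and 0.401 in FLX mice, so that 1 FLX mouse had the lowest value of all (log2 fold change 3.14, SE 0.71, adjusted p = 0.021). Klf4, a Krüppel-like transcription factor, rose by 0.75 (adjusted p = 0.022).

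Other shared genes included members of the injury, plasma protein, antioxidant and hypoxia lists. Shared genes made up 11.8%, 13.3%, 12.5% and 6.25% of these lists in that order, against 3.57% of all genes tested. They made up 7.41% of the proliferation list. Cp, the copper-carrying ferroxidase ceruloplasmin, rose without overlap from 2.04, 2.39 and 3.58 FPKM in Ctrl to 5.51, 7.57 and 13.9 in PBS and 4.21, 4.84 and 7.1 in FLX mice. Its log2 fold change was 1.32 ± 0.17 (SE, adjusted p = 0.00075). Cp and the thyroid hormone carrier Ttr (-0.98, adjusted p = 0.027) were the shared genes of 15 in the plasma protein list. All 17 injury and repair genes had positive log2 fold changes, with a median of 1.25, but only Cdkn1a and the adhesion molecule Vcam1 (0.70, adjusted p = 0.030) were shared. That median was 1.92 in PBS and 0.66 in FLX mice, and in PBS replicate 6 Lcn2 reached 49.2 FPKM and Havcr1 9.75 FPKM, against at most 4.42 and 1.66 in the other PBS mice. Without that mouse the median of the averaged comparison was 0.67, and 4 of the 17 genes were shared, beside 951 shared genes in all. Leaving it out moved the median of the plasma protein list from 0.87 to 0.50. Of 16 antioxidant genes, G6pdx, which opens the pentose phosphate pathway, was higher (0.59, adjusted p = 0.036) and the peroxide-reducing Prdx1 was lower (-0.39, adjusted p = 0.019). Car9, a carbonic anhydrase, fell by 0.96 (adjusted p = 0.0099) and was the 1 shared gene of 16 in the hypoxia list. That list had a median of 0.24, with 12 of the 16 above 0. The annotated span of Car9 overlaps that of Gm12454 on the other strand, which was also shared and lower. Of 27 proliferation genes, Tk1 (-0.60, adjusted p = 0.0495) and Cenpe (-0.97, adjusted p = 0.027) were lower, and Tk1 lost its call in 20 of 28 other settings.

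The 12 largest rises at a mean of 1 FPKM or more included 4 genes not yet described. Serpina3n, a serine protease inhibitor, had the largest value, 3.53 on the log2 scale (SE 0.94, adjusted p = 0.041). Its FPKM spread from 0.0857 to 0.544 in Ctrl, 0.548 to 24.1 in PBS and 0.0914 to 10.8 in FLX mice, and the call was lost in 14 of 28 other settings. Aldh1a1 and Aldh1a7, near-identical aldehyde dehydrogenase genes whose reads may be exchanged, rose by 1.81 and 1.56 (adjusted p = 0.031 and 0.035), with the highest values in PBS replicate 6 (14.7 and 56.6 FPKM). Ighg2b, an immunoglobulin constant region, rose by 1.55 (adjusted p = 0.015), while none of the 12 lymphocyte markers tested was called.

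Glt1d1 (ENSMUSG00000049971, chromosome 5, 127632262 to 127709374), a glycosyltransferase-like gene, stood at 4.49, 5.27 and 8.13 FPKM in Ctrl, 2.2, 2.59 and 3.04 in PBS and 1.63, 2.97 and 3.5 in FLX mice. Its annotated span overlaps that of Slc15a4. The groups did not overlap, the log2 fold change was -1.10 ± 0.14 (SE, adjusted p = 0.00075), and FLX versus PBS gave 0.01 (95% interval -0.34 to 0.36). Clec2h, a C-type lectin, stood at 23, 32.6 and 42.5 FPKM in Ctrl, 8.16, 17.1 and 18.1 in PBS and 9.49, 14.8 and 16.8 in FLX mice. It fell by 1.21 on the log2 scale (SE 0.17, adjusted p = 0.001) without overlap. Gstt2, a glutathione transferase, stood at 52.1, 68.6 and 91.9 FPKM in Ctrl, 35.4, 39.4 and 54.2 in PBS and 27.4, 34.3 and 42.8 in FLX mice (log2 fold change -0.95, SE 0.12, adjusted p = 0.00075). Rsrp1 fell by 0.45 (adjusted p = 0.00087) and Lmbr1l by 0.52 (adjusted p = 0.001), both without overlap. Tfap4, a helix-loop-helix transcription factor, fell by 1.35 (adjusted p = 0.0071), also without overlap. Aplnr, the apelin receptor, fell by 1.25 (adjusted p = 0.022), and Ces1g, a carboxylesterase, by 1.84 (adjusted p = 0.0075). The pseudogene Cyp4b1-ps2 fell by 2.05 (adjusted p = 0.032) beside its parent Cyp4b1, with which it may exchange reads. Its groups overlapped widely, at 1.15 to 16.6 FPKM in Ctrl and 0.618 to 10.2 in defeated mice, and the call was lost in 15 of 28 other settings. Aplnr and G6pdx lost theirs in 11, Tagln in 12, Aldh1a7 in 10, and Arrdc2, Degs2 and Dnajb1 in 9. The remaining members of the 12 largest falls at a mean of 1 FPKM or more carry clone or gene model names only. They were Gm45727 (-1.74), 4930556J24Rik (-1.31), 1010001B22Rik (-1.30), A930012O16Rik (-1.26), Gm45083 (-1.26) and 2310015A16Rik (-1.23).

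**Figure D3:**
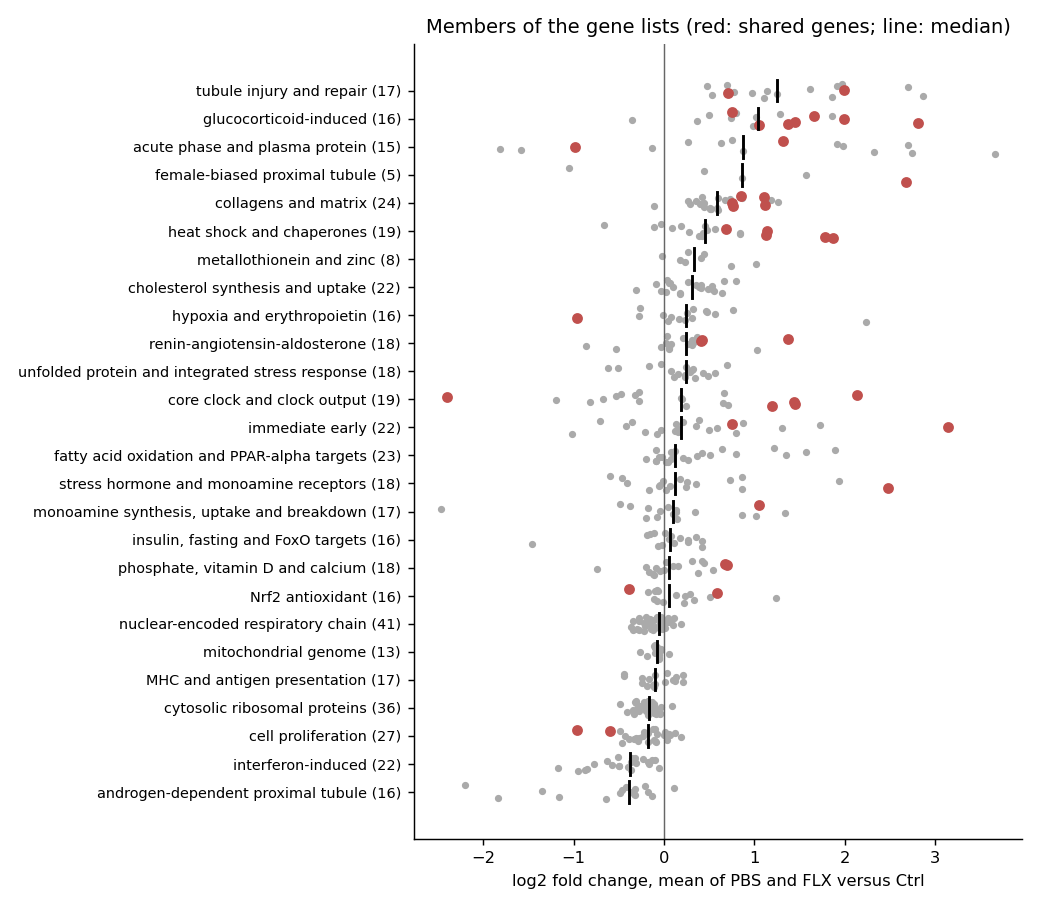
Log2 fold change of the mean of PBS and FLX versus Ctrl (horizontal axis) for each tested member of 26 gene lists (rows, number tested in parentheses). Red dots are shared genes, grey dots the other members, and black lines the medians, which run from 1.25 in the injury list (0.67 without PBS replicate 6) to -0.39 in the androgen-dependent list (-0.33 without it).

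Several lists held no shared gene, against 3.57% of all genes tested. In lists of 8 to 41 genes that share amounts to few genes or none, so nothing is read from the absence. None of 23 fatty acid oxidation, 22 cholesterol, 16 insulin and fasting, 41 respiratory chain, 13 mitochondrial genome, 36 ribosomal protein, 18 unfolded protein, 8 metallothionein and zinc, 22 interferon-induced or 17 antigen presentation genes was shared. Their most abundant members had log2 fold changes of -0.02 for Ehhadh, 0.18 for Hmgcs1, -0.02 for Fbp1, -0.27 for Cox4i1, -0.04 for mt-Co1, -0.19 for Rplp1, 0.23 for Hsp90b1, 0.74 for Mt1, -0.87 for Ifit3 and 0.13 for B2m, with adjusted p between 0.097 and 0.97. In each of these lists 1 to 10 members had an unadjusted p under 0.05, and DESeq2 made at most 1 member shared. No share of all genes at that unadjusted limit is given here, so nothing is read from these counts. All 22 interferon-induced genes had negative log2 fold changes, with a median of -0.38, but none was called. The summed FPKM of the list had medians of 69.43 in Ctrl, 69.25 in PBS and 66.93 in FLX mice. Its highest values were 213 in Ctrl, 128 in PBS and 110.9 in FLX mice. Ifit3 reached 44.38 FPKM in Ctrl replicate 6, against a Ctrl median of 10.03. The part of single Ctrl mice in these signs was not tested. Without Ctrl replicate 3, 16 ribosomal protein genes and 9 respiratory chain genes became shared and lower, and 3 of 6 podocyte markers shared and higher. In that setting 1092 genes in all were shared and higher and 1136 were shared and lower. Without PBS replicate 6, Nsdhl and Mtf1 of the cholesterol and zinc lists became shared and higher, and Igfbp1 of the fasting list became shared and lower. With that mouse left out, 507 genes in all were shared and higher and 444 were shared and lower.

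FLX and PBS mice were compared directly to see where the drug group stood. The fold change sets only the FLX mean against the PBS mean. The scaling, and the spread behind the p values and intervals, were estimated over all 18 mice, Ctrl mice included. Whether FLX mice were nearer to Ctrl was read with the sign of the averaged comparison, which uses the Ctrl mean. The 713 genes were chosen on the same PBS and FLX values, so nothing is read from the shares and counts that follow. Of the 713 shared genes, 136 (19.1%) differed between FLX and PBS mice at an unadjusted p under 0.05, against 12.2% of all genes tested. In 93 of the 136 the FLX group was nearer to Ctrl, and in 43 it was further away. At an adjusted p under 0.05 there were 13 shared genes (1.82% of the 713) against 0.557% of all genes. Of these, 10 were nearer to Ctrl in FLX mice: Per1, Noct, Cebpb, Glul, Pim3, Arrdc2, Adamtsl2, Ripk4, Cyp4b1 and Degs2. The 3 others, Arntl, Cry1 and Dbp, are the clock genes described above, which were further from Ctrl in FLX mice. Cebpb, a transcription factor of the acute response, stood at 7.92, 10.7 and 12.9 FPKM in Ctrl, 19.7, 26.4 and 39.9 in PBS and 14.8, 15.3 and 18.6 in FLX mice. All 3 groups were thus apart, and FLX versus PBS gave -0.91 (adjusted p = 0.011). Glul, glutamine synthetase, had 70.5, 80.3 and 92.1 FPKM in Ctrl, 136, 176 and 213 in PBS and 93.1, 111 and 162 in FLX mice. FLX mice lay above every Ctrl mouse, and only the highest FLX mouse exceeded the lowest PBS mouse. FLX versus PBS gave -0.68 (adjusted p = 0.027). Pim3, a kinase, gave -0.72 (adjusted p = 0.044) and Adamtsl2, a matrix glycoprotein, -0.61 (adjusted p = 0.042). Cyp4b1, a cytochrome P450, showed the opposite sign, with medians of 1089 FPKM in Ctrl, 369 in PBS and 900 in FLX mice (FLX versus PBS 1.04, adjusted p = 0.011). Its shared call was lost in 17 of 28 other settings.

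For the rest, a p that misses the threshold does not show that the groups were alike, so the intervals were used. In 455 of the 713 shared genes the 95% interval of FLX versus PBS (63.8%) lay inside a 1.5-fold difference in either direction, against 47.9% of all genes tested. The rule asks for the same sign and a low p in both groups and so favours such genes, and nothing is read from the higher share. Tsc22d3, Glt1d1, Bag3 (-0.19 to 0.35), Rsrp1 (-0.07 to 0.22) and Scnn1g (-0.35 to 0.15) were among them.

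**Figure D4:**
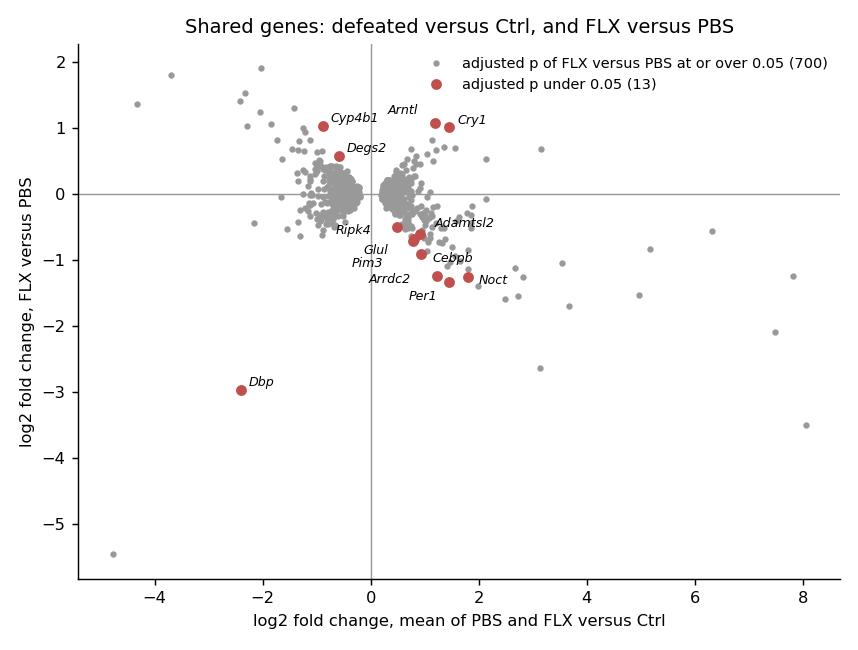
Each dot is 1 of the 713 shared genes, with the log2 fold change of the mean of PBS and FLX versus Ctrl on the horizontal axis and FLX versus PBS on the vertical axis. The 13 genes at an adjusted p under 0.05 for FLX versus PBS are red and named; 10 lie on the side nearer to Ctrl, and Arntl, Cry1 and Dbp lie on the far side.

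The shared genes were also described by transcript length and coding class, which the rule does not name. Whether these features are independent of the counts behind its p values was not tested. The longest annotated transcript had a median of 3726.5 bases for the rises and 2281 for the falls, against 2832 for all genes tested. Of the rises, 16 of 372 had no protein-coding transcript, against 75 of 341 falls and 22.9% of all genes tested. The share in the falls was near that of all genes tested. Transcript length also moved with the mice. Across 6266 genes, the Spearman correlation of transcript length with each mouse's log2 deviation from the mean of the Ctrl mice (for a Ctrl mouse, the other 5) was 0.64 in Ctrl replicate 3, -0.48 to -0.17 in the other 5 Ctrl mice, -0.08 to 0.34 in PBS and 0.17 to 0.54 in FLX mice. Genes of a mouse share its library and depth. With the length trend removed from each mouse, an alternative chosen after seeing the data, 844 genes were shared, of which 618 were among the 713, and 70 of the 74 named shared genes were among them. Cyp4b1, Cyp4b1-ps2, Degs2 and Ripk4 were not.

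Markers of tissue next to the kidney varied widely between mice. The summed FPKM of 8 white fat markers was 14.8 to 237 in Ctrl and 41.1 to 1380 in defeated mice, and that of 7 brown fat markers was 16.1 to 99.1 and 12.2 to 800. All 8 white fat and all 7 brown fat markers had positive log2 fold changes, with medians of 1.76 (1.70 in PBS and 1.83 in FLX mice) and 3.07 (3.69 and 2.43). None of the white fat markers was called, and of the brown fat markers only Elovl3, a fatty acid elongase, was shared, at 0 to 0.0615 FPKM in Ctrl, 0.117 to 8.71 in PBS and 0 to 2.39 in FLX mice. Its call was lost in 16 of 28 other settings. Of 10 neutrophil markers tested, Ngp was shared. It had no count in any Ctrl mouse and 0 to 5.4 FPKM in defeated mice, and 4 shared genes in all (Hapln4, Ngp, Gm15241, Gm48795) had no count in Ctrl mice, so that no fold change is given for them. The call of Ngp was lost in 16 of 28 other settings. The summed FPKM of neutrophil markers was 2.37 to 4.39 in Ctrl, 8.1 to 68.1 in PBS and 1.42 to 7.47 in FLX mice. Of 6 adrenal markers only 2 were tested, and their list summed to 0.572 to 1.21 FPKM in Ctrl mice and at most 3.57 in defeated mice. Proximal tubule markers, the defining genes of kidney cortex, were high in every mouse, at 1101 to 2154 FPKM in sum, with the lowest value in PBS replicate 6. The part of these tissues in the shared genes was not tested.

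At the edge of the rule, Brdt, Fis1 and Tm7sf3 were just inside, with adjusted p values of 0.0497, 0.0496 and 0.0498, and Thoc7 and 2700062C07Rik were just outside, each with 0.0502. The 3 just inside lost their calls in 17, 22 and 21 of 28 other settings.

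**Figure D5:**
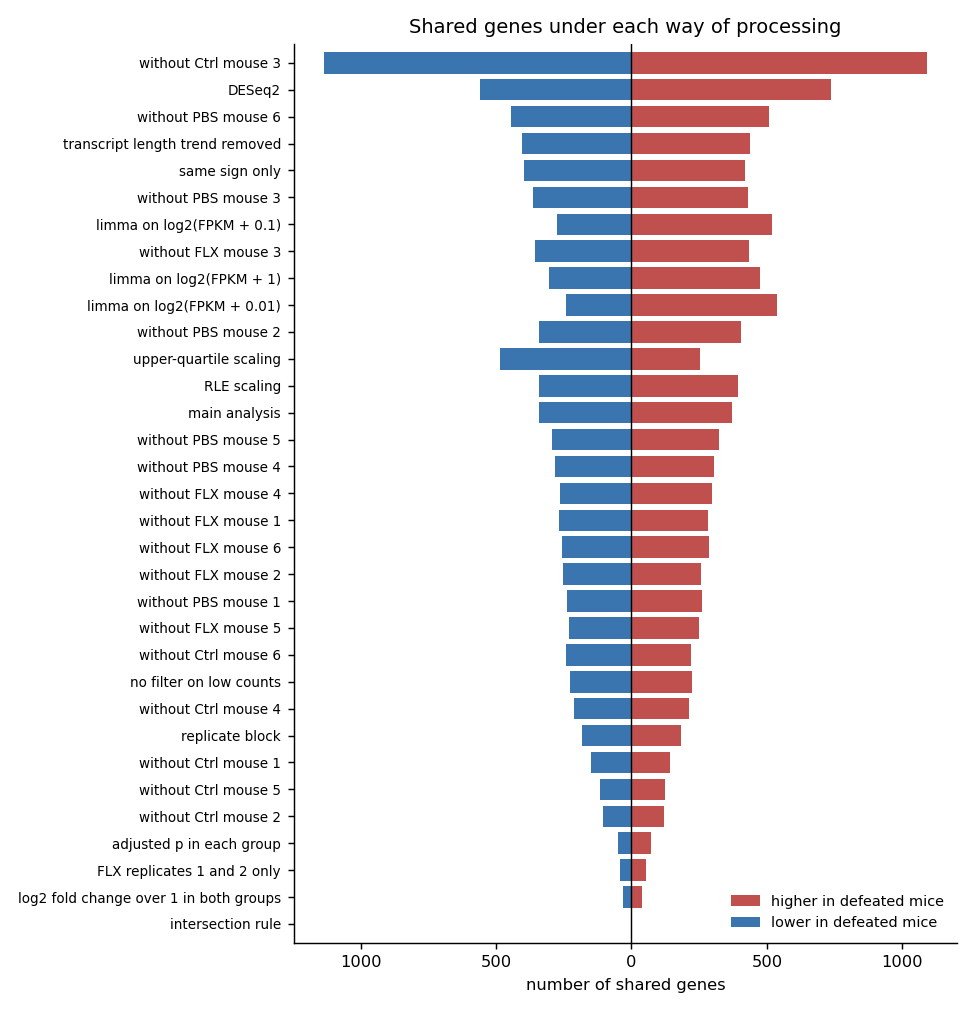
Number of shared genes (horizontal axis), higher to the right and lower to the left, under the main analysis and each other setting (rows). The total runs from 4 when the larger of the 2 p values is adjusted to 2228 without Ctrl replicate 3, and upper-quartile scaling changes the balance from 372 higher and 341 lower to 254 and 486.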

How the data were processed

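Kidneys of 18 mice, 6 per group, were profiled by poly(A) RNA sequencing. The deposited table holds estimated counts, rounded to whole numbers by the authors, and FPKM values made by the authors with StringTie, for 32675 genes on GRCm38. The study's methods name fastp, HISAT-3N beta, StringTie and gffcompare. The submitters' processing notes name cutadapt 1.9, HISAT2 2.0.4, UMI-tools and StringTie 1.3.4d. The tool and strand setting behind the counts are not given in the sources used here, and estimates can divide reads between similar genes arbitrarily.

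Counts were fitted with edgeR 4.0.16 (R 4.3.3; TMM scaling, filterByExpr, quasi-likelihood test) with a mean per group over all 18 mice, and p values were adjusted by Benjamini-Hochberg over 19946 genes. The contrast was the equally weighted mean of PBS and FLX against Ctrl. Single genes also received an exact two-sided permutation test on log2(FPKM + 0.1) over all 18564 divisions into 12 and 6 mice. Scripts were tested on simulated data. Alternatives were RLE and upper-quartile scaling, no filter, DESeq2 1.42.0, limma 3.58.1 on log2(FPKM + 0.01, 0.1 or 1), the 12 defeated mice as 1 group, a replicate block, leaving out each mouse, FLX replicates 1 and 2 only and, chosen after seeing the data, removal of a transcript length trend. No 2 mice of a group shared more than 0.866% of counts exactly. The study removed 1 PBS mouse that its text does not identify, and all 6 PBS mice were used here.

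The gene lists, the contrast and the alternatives were chosen with earlier results of these data known. Named were the 12 largest shared rises and falls and the 10 smallest adjusted p values at a mean of at least 1 FPKM, shared members of the lists, the most abundant members of lists without one, shared genes at an adjusted p under 0.05 for FLX versus PBS, and genes at the edge of the rule.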

Additional observations from a re-analysis of the deposited data

Results flagged for a closer look

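In a group of 6 mice, a highest or lowest value that stood apart from the rest by Dixon's 95% criterion was noted, in 351 groups of 117 named genes. There were 35 such values. The criterion's rate of about 1 in 20 groups holds for independent, normally distributed values. These genes come from the same mice and were chosen on these data, so nothing is read from the count. PBS replicate 6 held 15 of them and Ctrl replicate 3 held 8.

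In PBS replicate 6 the highest PBS values were 14.7 FPKM for Aldh1a1, 9.58 for Col6a1, 841 for Cyp4a10, 586 for Ehhadh, 4.81 for Fn1, 54.2 for Gstt2, 47.8 for Podxl and 18.8 for Scnn1g. The lowest were 5.59 FPKM for Cyp51, 4720 for Kap, 1.51 for Pvalb, 396 for Slc27a2, 362 for Slc34a1, 0.708 for Slc7a12 and 0.393 for Tk1.

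In Ctrl replicate 3 the lowest Ctrl values were 553 FPKM for Atp5b, 446 for Cox4i1, 56.4 for Fis1, 416 for Rplp1 and 385 for Rps15, and the highest were 8.5 for Bag3, 101 for Hmgcs1 and 0.837 for Star.

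In Ctrl replicate 6 Nfil3 was highest at 4.43 FPKM, and Ighm (1.65) and Igkc (8.05) were lowest. In FLX replicate 5 Ighm (18.3) and Ngp (0.459) were highest and Ttr (22.6) was lowest. In FLX replicate 4 Cebpb (18.7) and Vcam1 (2.95) were highest. In FLX replicate 6 Nr4a3 (0.0151) and Rps15 (404) were lowest. Gm45727 was highest at 2.08 FPKM in FLX replicate 2, and Hsd3b1 was highest at 1.02 FPKM in PBS replicate 5.

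FLX and PBS mice differed at an adjusted p under 0.05 by edgeR in 13 shared genes. The log2 fold changes of FLX versus PBS were -2.97 for Dbp, -1.33 for Per1, -1.25 for Noct, -1.24 for Arrdc2, -0.91 for Cebpb, -0.72 for Pim3, -0.68 for Glul, -0.61 for Adamtsl2 and -0.50 for Ripk4. They were 1.07 for Arntl, 1.04 for Cyp4b1, 1.01 for Cry1 and 0.58 for Degs2.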

How the results depend on the processing

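Of 817 called and 713 shared genes in the main analysis, DESeq2 gave 1708 and 1295, no filter on low counts 501 and 452, the replicate block 406 and 367, and FLX replicates 1 and 2 only 101 and 93. Leaving out 1 mouse gave 249 to 2589 called and 227 to 2228 shared genes. The mice that moved either count by over 1.5 times were the 6 Ctrl mice, with 289 shared genes without replicate 1, 227 without 2, 2228 without 3, 426 without 4, 242 without 5 and 462 without 6. A fold change over 1 on the log2 scale in both groups left 71 genes, an adjusted p in each group 123, and adjustment of the larger p value 4. The 13 differences between FLX and PBS mice became 34 by DESeq2, 8 without the filter, 7 with the replicate block, 0 by edgeR with FLX replicates 1 and 2 only (61 at an unadjusted p under 0.05), and 4 to 17 when 1 mouse was left out. The split of shared genes into higher and lower was 372 and 341, but 254 and 486 with upper-quartile scaling, 518 and 275 by limma with a pseudocount of 0.1, and 536 and 240 with 0.01. The called genes split likewise, into 291 and 555, 595 and 342, and 602 and 302. The causes were not tested.

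The replicate numbers showed no regular pairing of the mice. Deviations of 18 same-numbered pairs correlated at -0.393 to 0.37, 4 of them above 0.1. No mouse correlated best with its own number in both other groups at once. With the block, 53 of the 74 named shared genes stayed shared. Without Ctrl replicate 3 the calls of Aplnr, Arrdc2, Cyp4b1, Dbp, Hspb1 and Sult1a1 were lost, and without PBS replicate 6 those of Dbp, Fis1 and Hspb1.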
